A study of Homo sapiens with 9 samples.

Results

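Messenger RNA precursors are cut downstream of a poly(A) signal and then receive a poly(A) tail. The 10 genes described here encode core factors of that reaction, namely NUDT21, CPSF6 and CPSF7 of cleavage factor I, CPSF1 to CPSF4 of the cleavage and polyadenylation specificity factor, CSTF2 and CSTF3 of the cleavage stimulation factor, and PCF11 of cleavage factor II. They were chosen by name, because KIAA1429 (VIRMA, also called Virilizer), a subunit of the m6A methylase complex, is known for links to poly(A) site choice. All 90 transcripts of these 10 genes that could be matched were taken, out of 183122 matched transcripts of 56347 genes.

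As background, the specificity factor recognises the AAUAAA hexamer, and its CPSF3 subunit is the endonuclease that cuts the RNA. The stimulation factor binds U-rich or GU-rich sequence past the cut, and cleavage factor I binds UGUA elements upstream of it. NUDT21 and CPSF6 are known for favouring distal poly(A) sites, and PCF11 couples cleavage to transcription termination.

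RNA was sequenced from nuclear and cytoplasmic fractions of HEK293 cells, an embryonic kidney cell line (the study's methods name the 293T derivative). Cells received control siRNA (3 nuclear libraries, 1 cytoplasmic library) or siRNAs against both WTAP and KIAA1429, hereafter RNAi (3 nuclear and 2 cytoplasmic libraries). All groups are transfected cells of one line, and RNAi lowers rather than removes its targets. The single control cytoplasm enters every cytoplasmic and every ratio comparison, so its own spread could not be measured. Nothing in the labels says that replicates are separate cultures, and p-values therefore measure only the spread between these libraries.

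Libraries held between 11627403 and 19036141 estimated counts. Both targets were lower after RNAi. Levels are given in CPM, a count scaled to the library's total after that total was adjusted by the TMM scaling described below. WTAP was at 23.0 to 27.6 CPM in control nuclei and at 12.2 to 15.6 CPM in RNAi nuclei. VIRMA was at 13.2 to 19.8 CPM and 5.56 to 9.18 CPM in the same groups. The log2 fold changes of WTAP and VIRMA in nuclei were -0.83 ± 0.13 (SE, FDR 0.0169) and -1.08 ± 0.21 (FDR 0.0314). The 4 tested nuclear RNA markers (MALAT1, NEAT1, KCNQ1OT1 and SNHG14) were all higher in the nucleus and the 5 cytoplasmic ones (GAPDH, ACTB, EEF1A1, TUBB and RPLP0) all had negative nuclear values. Summed, the nuclear markers reached 255.5 to 420.1 CPM in nuclei and 33.3 CPM in the control cytoplasm, but 20.6 and 19.7 CPM in the RNAi cytoplasms. The cytoplasmic markers summed to 6749 to 7582 CPM in nuclei, 12030 CPM in the control cytoplasm and 14790 and 14960 CPM in the RNAi cytoplasms. No summed marker list was at 0, although SNHG14 was at 0 in 1 RNAi cytoplasm. The cytoplasmic groups thus differed in their markers, and the part this plays in the results was not tested.

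The annotated ends of the members' own mRNAs were searched for the elements that these factors bind. In the last 50 bases of the 19 tested coding transcripts with a complete annotated end (GENCODE 44), 11 held the AATAAA hexamer on the transcript's strand, 2 more held only the common variant ATTAAA, and 6 held neither. Of all 54715 such coding transcripts, 49.1% held the hexamer and a further 11.7% only the variant. The DNA form of the cleavage factor I element lay in the last 100 bases of 10 of the 19, against 46.7% of all. The members thus lay near the shares over all coding transcripts, and 9 of the 19 held no such element. The matches are descriptions of letters, not of used sites. The windows below were chosen because these transcripts carry the results, and because CPSF6 and CPSF7 each have a pair of annotated ends. They are in GRCh37 coordinates, are read 5′ to 3′ on the transcript's strand from GENCODE 44, and have the signal in capitals.
NUDT21-201, chr16:56463050-56463079, minus strand: tattgtcatttcAATAAAaaatatttgaaa
CPSF6-201 (nearer end), chr12:69663689-69663718, plus strand: atgtagtgttgtAATAAActgtttaatggg
CPSF6-202 (farther end), chr12:69668104-69668133, plus strand: tcttgtattgaaAATAAAacaaacttttga
CPSF7-205 (nearer end), chr11:61170206-61170235, minus strand: tgaaaattgtgtAATAAActtgatgacgct
CPSF7-202 (farther end), chr11:61170131-61170160, minus strand: atatttttaaatAATAAAtggggtgtgagc
CSTF3-201, chr11:33106132-33106161, minus strand: agtcctttaaaaAATAAAaggattcagaaa
All of these windows lie in the last exon of their transcript. PCF11-201 had neither hexamer in its last 50 bases. Only 9 of the 19 transcripts have the same length in the deposited files as in GENCODE 44, so the ends in the older Ensembl release that the authors used may lie elsewhere.

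The first question was whether the levels of these mRNAs changed in the nucleus on RNAi. None of the 10 members passed the thresholds (log2 fold change beyond 0.5 in size and FDR under 0.1, edgeR), where 4.89% of the 16181 tested genes did. At an unadjusted p under 0.05 there were 2 members, and DESeq2 also called 0. The members' median log2 fold change was 0.018, beside -0.001 over all genes. The RNAi and control nuclei did not overlap in 3 of the 10 members, near the share over all genes (28.1%), so the separations below are descriptions. CPSF3, the endonuclease, was at 25.1, 22.8 and 22.8 CPM in control nuclei and at 19.5, 18.4 and 16.2 CPM in RNAi nuclei. These groups did not overlap, and the difference of -0.39 ± 0.11 had an FDR of 0.082 but fell short of the size threshold. CPSF4, a zinc finger subunit, showed 36.6, 38.1 and 33.0 CPM in control against 43.1, 42.8 and 50.1 CPM in RNAi nuclei. Its groups did not overlap either, at a log2 fold change of 0.34 ± 0.11 and an FDR of 0.106. The groups of NUDT21 were also apart, with 39.0, 32.9 and 34.1 CPM in control and 31.2, 29.6 and 30.5 CPM in RNAi nuclei, and its value was -0.22 ± 0.10 (FDR 0.262). The other 7 members had log2 fold changes between -0.05 and 0.25. The RNAi nuclei of PCF11 were led by replicate 1, which was at 17.3 CPM against 12.1 and 11.99 CPM in the others. In bulk RNA, a change in the amount per cell cannot be told apart from a change in the number of cells that express the gene.

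**Figure D1:**
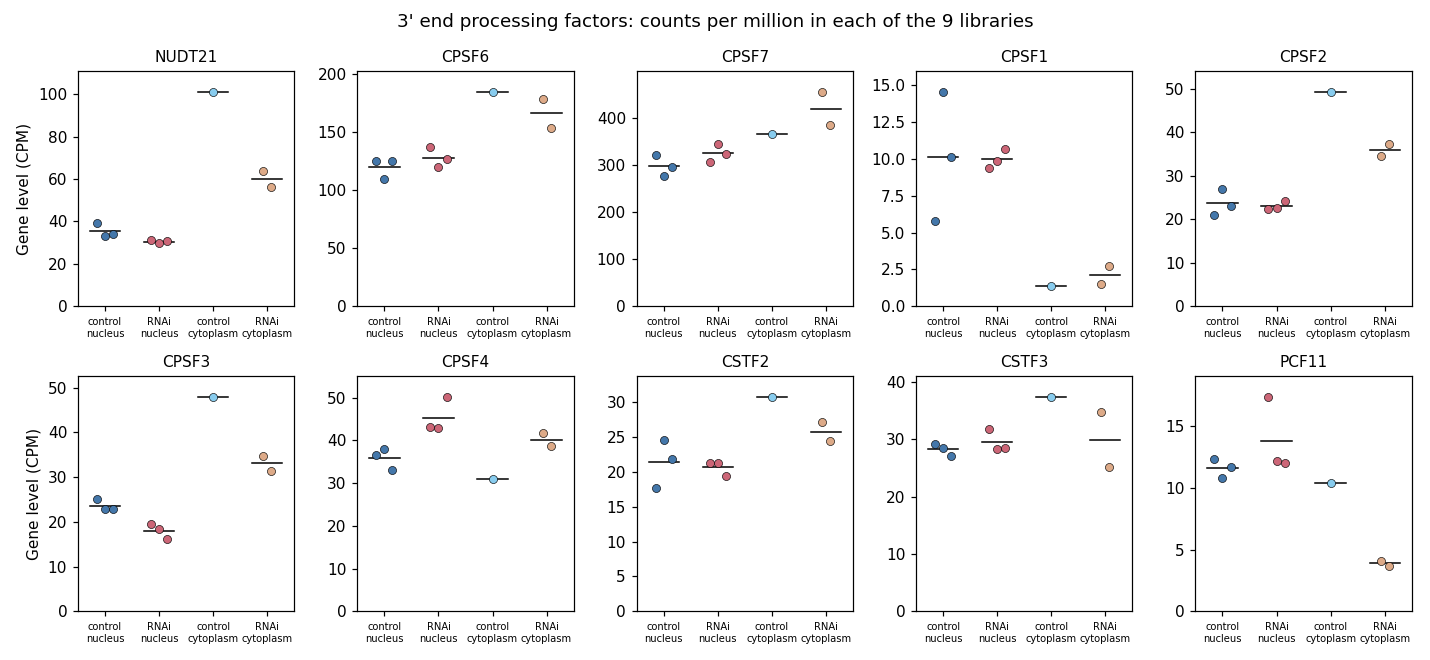
Each panel shows 1 gene, with its level in CPM (vertical axis, from 0) in every library of the 4 groups (horizontal axis); points are libraries and lines are group means. NUDT21, CPSF6, CPSF2, CPSF3, CSTF2, CSTF3 and PCF11 are lower in both RNAi cytoplasms than in the control cytoplasm, which is a single library, while CPSF1 lies between 1.34 and 2.73 CPM in all cytoplasmic libraries and between 5.77 and 14.5 CPM in nuclei.

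In the cytoplasm, 3 of the 10 members passed, all lower on RNAi, and 24.6% of all tested genes passed in this comparison. The members' median was -0.28, beside 0.011 over all genes. NUDT21, the subunit of cleavage factor I that binds UGUA, was at 100.9 CPM in the control cytoplasm and at 63.8 and 56.3 CPM in the RNAi cytoplasms. The RNAi libraries held 59.6% of the control level (log2 -0.75 ± 0.14, FDR 0.00639). PCF11 fell from 10.4 CPM to 4.05 and 3.72 CPM, or 37.5% of control (log2 -1.41 ± 0.26, FDR 0.00543). CPSF3 was at 47.8 CPM in control and at 34.7 and 31.5 CPM after RNAi, or 69.2% (log2 -0.53 ± 0.16, FDR 0.038). The call of CPSF3 was lost without RNAi cytoplasm replicate 2, with an FDR of 0.108. CPSF2, which is related in sequence to CPSF3, was at 49.2 CPM in control and at 34.6 and 37.3 CPM after RNAi. Its log2 fold change of -0.46 ± 0.17 (FDR 0.0777) missed the size threshold, and it passed without control nucleus replicate 1 (-0.51, FDR 0.0317) or 3 (-0.51, FDR 0.0888).

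The members that did not pass in the cytoplasm lay on both sides of 0. CPSF6, a partner of NUDT21, was at 184.1 CPM in control and at 178.6 and 153.0 CPM after RNAi (log2 -0.15 ± 0.15, FDR 0.509). CPSF7, the alternative partner, was at 366.2 CPM and then at 454.4 and 384.8 CPM (log2 0.20 ± 0.15, FDR 0.384), and took the opposite sign (-0.056) when only library size was used for scaling, which moves the median of all genes to -0.24. CPSF4 had 31.0 CPM in control and 41.8 and 38.6 CPM after RNAi (log2 0.38 ± 0.16, FDR 0.125). CSTF2, which binds RNA through its recognition motif, had 30.6 CPM and then 27.0 and 24.4 CPM (log2 -0.25 ± 0.19, FDR 0.401). CPSF1, the large scaffold subunit, stood at 1.34 CPM and then at 1.48 and 2.73 CPM (log2 0.61 ± 0.62, FDR 0.532). CSTF3, the subunit that holds the stimulation factor together as a dimer, had 37.3 CPM and then 34.7 and 25.2 CPM. Its log2 fold change of -0.31 ± 0.19 (FDR 0.272) was positive with the length offset (0.31) and in limma (0.02), and passed without RNAi cytoplasm replicate 1 (-0.57, FDR 0.0561).

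**Figure D2:**
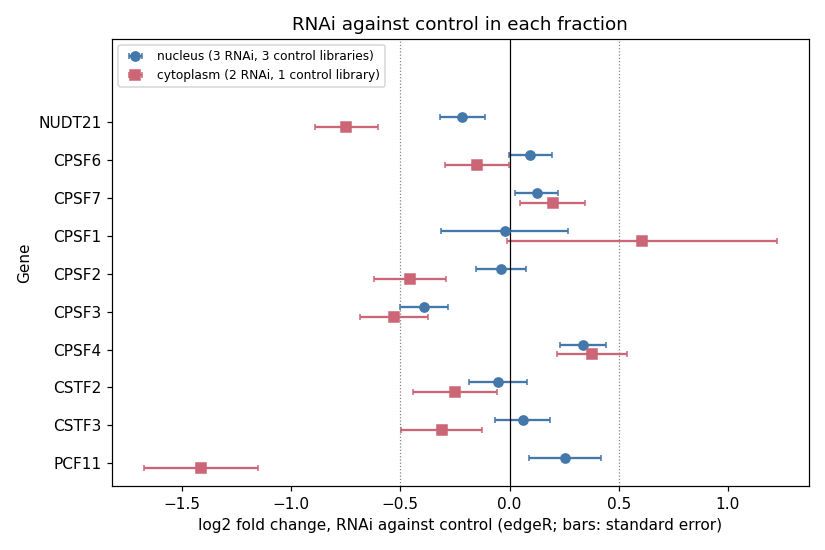
Log2 fold change of RNAi against control (horizontal axis) for each of the 10 genes (vertical axis), in the nucleus (circles) and in the cytoplasm (squares), with standard errors from edgeR; dotted lines mark the size threshold of 0.5. The circles stay between -0.39 and 0.34, and the squares of NUDT21, CPSF3 and PCF11 lie beyond -0.5.

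The study asked whether RNAi shifts mRNAs between nucleus and cytoplasm, and the nuclear/cytoplasmic ratio addresses this as the difference between both fractions' RNAi effects. It rose for 2 of the 10 members, PCF11 and NUDT21, and fell for 0, where 18.2% of all tested genes passed in either direction, 1680 higher and 1273 lower. Scaling by library size alone split the genes that passed into 2236 higher and 164 lower, and limma on log2(TPM + 1) into 1044 and 30. The study reported far fewer genes in each direction. It had more cytoplasmic libraries and made gene totals with tximport, so the counts here are not the study's. The ratio of PCF11 was 3.18-fold higher on RNAi (log2 1.67 ± 0.31, FDR 0.00992), and it passed without each of the 8 libraries that could be left out in turn. That of NUDT21 was 1.45-fold higher (log2 0.53 ± 0.18, FDR 0.0795). It kept its call without control nucleus replicate 1 (FDR 0.0291) or RNAi cytoplasm replicate 1 (FDR 0.0806) and lost it without any other library left out, with log2 values of 0.48 to 0.55 and FDRs of 0.0826 to 0.167. The median over the members was 0.22, beside -0.047 over all genes. CPSF2 was at 0.42 ± 0.20 (FDR 0.212), and passed without control nucleus replicate 2 (0.52, FDR 0.0683). CPSF6 was at 0.25 ± 0.18 (FDR 0.399) and CPSF3 at 0.14 ± 0.19 (FDR 0.686). CSTF3 was at 0.37 ± 0.23 (FDR 0.316), with the opposite sign under the length offset (-0.10), and passed without RNAi cytoplasm replicate 1 (0.63, FDR 0.0861). CSTF2 was at 0.20 ± 0.24 (FDR 0.629), CPSF1 at -0.63 ± 0.68 (FDR 0.59), and CPSF4 and CPSF7 at -0.04 ± 0.19 and -0.07 ± 0.18. The last 2 values turned positive with scaling by library size alone (0.24 and 0.22), a scaling that moves the median ratio of all genes to 0.23, and in limma on log2(TPM + 1) (0.25 and 0.38), where that median is 0.21.

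Neither ratio call passed in the settings that take transcript length into account, and the cause was not tested. With an offset for the mean transcript length of the gene, PCF11 had a ratio of 0.45 (FDR 0.56) and NUDT21 of 0.50 (FDR 0.165), and the share of all genes that passed was 11%. With limma on log2(TPM + 1), which also changes the test and the scaling, they had 0.60 (FDR 0.4) and 0.82 (FDR 0.148). In the cytoplasm the same settings gave PCF11 -0.40 (FDR 0.495) and -0.52 (FDR 0.341), whereas NUDT21 kept its call at -0.66 (FDR 0.0296) and -0.91 (FDR 0.0529). Of the 4 nuclear RNA markers, 3 (MALAT1, NEAT1 and KCNQ1OT1) also had a called higher ratio. Of the 5 cytoplasmic markers TUBB was called lower (-0.52, FDR 0.0621), GAPDH, EEF1A1 and RPLP0 were at -0.31 to -0.42 and ACTB at 0.49, none of the last 4 called. KCNQ1OT1 was at 6.39 CPM in the control cytoplasm and at 4.05 and 3.28 CPM after RNAi, and had a ratio of 1.58 ± 0.29 (FDR 0.00987). The part of these markers in the results for PCF11 and NUDT21 was not tested.

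The location of the members was compared within each condition. The scaling makes the typical gene near equal between fractions (median log2 0.037 over all genes in control cells). The values below therefore place a gene among the others of its fraction and are not amounts per nucleus or cytoplasm. In control cells 6 of 10 passed, 1 higher in the nucleus and 5 lower, and 50.8% of all tested genes passed. NUDT21 was lowest in the nucleus, at 35% of its cytoplasmic level (log2 -1.51 ± 0.13, FDR 2.84e-05). CPSF2 and CPSF3 were at 48.2% and 49.4%, CPSF6 at 64.9% and CSTF2 at 69.7%. CPSF1, whose full-length coding mRNA is not among the matched transcripts, was 7.52-fold higher in the nucleus (log2 2.91 ± 0.54, FDR 0.00172). In RNAi cells 5 of 10 passed, where 57.8% of all genes did. NUDT21, CPSF3 and CPSF2 were again lower in the nucleus, at 50.6%, 54.4% and 64.2% of the cytoplasmic level. CPSF1 was 4.86-fold and PCF11 3.55-fold higher in the nucleus (log2 1.83 ± 0.21, FDR 5.72e-05 for PCF11). In control cells PCF11 had shown 12.4, 10.8 and 11.7 CPM in nuclei and 10.4 CPM in the cytoplasm (log2 0.16 ± 0.23, FDR 0.592).

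Levels between genes were compared in TPM, which scales counts by transcript length. In nuclei CPSF7 was the most abundant member, at up to 159.4 TPM, and its lowest library lay above the highest of any other member. CPSF4 (38.3 to 67.8 TPM), CPSF6 (47.2 to 56.5 TPM) and CSTF3 (35.7 to 47.5 TPM) came next and overlapped. NUDT21 followed at 24.3 to 34.7 TPM. PCF11 (11.3 to 16.9 TPM), CPSF3 (10.02 to 14.2 TPM) and CSTF2 (8.88 to 14.9 TPM) overlapped one another, and CPSF2 was lowest at 4.88 to 8.15 TPM. Gene totals mix transcripts of several annotated types. Those annotated as protein coding held a median of over 98% of the nuclear TPM of CPSF6 (98.9%), CSTF2 (98.6%) and PCF11 (99.2%). They held 84.0% for CPSF7, 89.4% for CPSF2, 80.2% for CPSF3, 41.8% for NUDT21, 38.2% for CPSF4 and 18.3% for CSTF3. The gene tests use counts, of which longer transcripts hold more. Coding transcripts held 74.0% to 84.9% of the nuclear counts of NUDT21, 55.4% to 66.1% of those of CPSF4, 45.8% to 63.7% of those of CSTF3, and at least 92.5% of those of the other members except CPSF1. For CPSF1 this share was 0 in the median, and transcripts annotated as retaining an intron held at least 98.9% of its nuclear TPM. No full-length coding transcript of CPSF1 was among the matched ones, so its coding mRNA was not analysed here. The values and location calls of CPSF1 above are those of the transcripts that matched, and do not describe its coding mRNA.

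**Figure D3:**
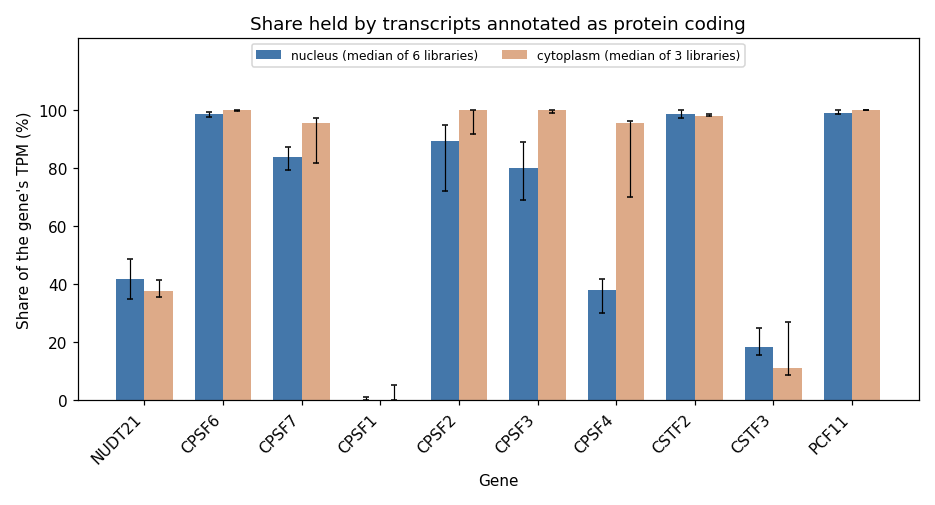
Share of each gene's TPM (vertical axis, in percent) held by transcripts annotated as protein coding, in 6 nuclear and 3 cytoplasmic libraries; bars are medians and error bars run from the lowest to the highest library. For CPSF4 the share is 30.2% to 41.8% in nuclei and 70.0% to 96.4% in cytoplasms, whereas for NUDT21 the ranges overlap. No full-length coding transcript of CPSF1 was among those matched, so its bars do not describe its coding mRNA.

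With protein-coding transcripts only, an alternative chosen after these shares were seen, 5 of 9 members were lower in the RNAi cytoplasm, where 24.7% of all 12774 tested genes passed. NUDT21 was at -0.82 ± 0.18 (FDR 0.0145), PCF11 at -1.48 ± 0.27 (FDR 0.00781) and CPSF3 at -0.60 ± 0.17 (FDR 0.0359), and CPSF2 (-0.51 ± 0.17, FDR 0.0628) and CSTF3 passed in addition. CSTF3 was at -1.15 ± 0.22 (FDR 0.0091) here, against -0.31 ± 0.19 (FDR 0.272) over all its transcripts. Its ratio was 1.00 ± 0.27 (FDR 0.0496), against 0.37 ± 0.23 (FDR 0.316), and with PCF11 it made 2 of 9 members called in the ratio, beside 15.5% of all genes. The NUDT21 ratio was 0.58 with an FDR of 0.132 in this setting. Location calls in control cells dropped from 6 to 3 members, NUDT21, CPSF2 and CPSF3, and those over all genes from 50.8% to 40.4%.

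Of the 90 member transcripts, 41 had enough counts to be tested singly. The RNAi and control nuclei did not overlap in TPM in 8 of the 41, near the share over all transcripts (18.2%), and each separation given below stands against that share. None was called in the nucleus on RNAi, as none of all 44726 transcripts was (0%) with edgeR. At an unadjusted p under 0.05 there were 3 member transcripts and 4416 in all, and DESeq2 called 1 and 1270. In the ratio edgeR called 0 of the 41, where 1.03% of all transcripts passed. There were 5 at an unadjusted p under 0.05 and 1 by DESeq2. In the cytoplasm 2 passed, CSTF3-201 and PCF11-201, where 2.84% of all passed. A test of usage, that is of a transcript's change against the rest of its gene, called 0 of 40 in the ratio and 0 of 40 in the nucleus, where 0.57% and 0.642% of all passed. At an unadjusted p under 0.05 there were 4 and 2, and limma's diffSplice called 0 and 1.

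PCF11-201, the full-length transcript of 7677 nt, was at 0.535 TPM in the control cytoplasm and at 0.160 and 0.102 TPM after RNAi (log2 -1.81, FDR 0.0835). In nuclei it was at 0.659, 0.898 and 0.625 TPM in control and at 0.862, 0.801 and 0.683 TPM after RNAi, and these overlapped. PCF11-206, a fragment of 580 nt whose mRNA end is not annotated, held most of the PCF11 TPM in nuclei and in the RNAi cytoplasms, but 46.1% in the control cytoplasm. It was at 8.65 to 12.4 TPM in control nuclei, 8.54 to 13.9 TPM in RNAi nuclei, 2.46 TPM in the control cytoplasm and 2.26 and 3.28 TPM after RNAi. This fragment showed no drop in the RNAi cytoplasm (log2 0.31, FDR 0.897), and the cytoplasmic groups of PCF11-206 overlapped. The 3 other coding transcripts with TPM there were lower in both RNAi cytoplasms. PCF11-203 was at 1.12 TPM in control and at 0.0731 and 0.215 TPM after RNAi, PCF11-204 at 0.555 and then 0.344 and 0.00394 TPM, and PCF11-205 at 0.665 and then 0.160 and 0.265 TPM. PCF11-201 shares 1516 bases with PCF11-AS1 on the other strand, which had 73 estimated counts over all 9 libraries.

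All 3 tested NUDT21 transcripts were lower in both RNAi cytoplasms than in the control one, and none passed singly. NUDT21-201, the coding transcript of 4436 nt, was at 15.6 TPM and then at 8.92 and 6.10 TPM (log2 -0.87, FDR 0.142). NUDT21-204, a coding fragment of 581 nt, was at 16.6 and then 11.3 and 8.86 TPM (log2 -0.59, FDR 0.646). NUDT21-205, of 607 nt, was at 53.1 and then 27.0 and 26.5 TPM (log2 -0.84, FDR 0.195). The last is annotated as retaining an intron, yet it was higher in the cytoplasm than in the nucleus, where it was at 12.9 to 18.1 TPM in control and 14.9 to 18.6 TPM in RNAi cells. GENCODE 44 places another gene on the same strand (ENSG00000288725) that shares 62.0% of NUDT21-201, and none of its transcripts is among those matched.

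CSTF3-201, the coding transcript, was at 8.61 TPM in the control cytoplasm and at 4.002 and 2.67 TPM after RNAi (log2 -1.19, FDR 0.0976). Control nuclei had 5.31, 6.95 and 5.65 TPM and RNAi nuclei 5.61, 5.36 and 4.36 TPM. Most of the gene's TPM, but 32.0% of its counts in the control cytoplasm and 35.6% to 43.8% in control nuclei, belonged to CSTF3-208, of 592 nt and annotated as a substrate of nonsense-mediated decay. The gene's transcripts of that type together held 32.3% of its counts in the control cytoplasm and 61.6% and 59.3% in the RNAi cytoplasms. In nuclei they held 36.3% to 44.1% in control and 45.7% to 54.2% after RNAi. CSTF3-208 held 28.4 TPM in the control cytoplasm, 47.8 and 27.3 TPM in the RNAi cytoplasms, 27.4 to 31.4 TPM in control nuclei and 34.7 to 39.7 TPM in RNAi nuclei. The nuclear groups of CSTF3-208 did not overlap, with a log2 fold change of 0.33 (FDR 0.668). It shares 44.4% of its bases with LINC00294 and 28.2% with TCP11L1, both on the other strand. No LINC00294 transcript is among those matched. Whether the authors' quantification used strand is not given in the sources used here, so reads of these genes may not be separable.

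CPSF3-201, the one tested transcript of the endonuclease gene, was at 9.78, 10.9 and 9.32 TPM in control nuclei and at 7.84, 8.51 and 6.97 TPM in RNAi nuclei. These groups did not overlap (log2 -0.43, FDR 0.352). In the cytoplasm it was at 20.6 TPM in control and at 13.3 and 10.46 TPM after RNAi (log2 -0.61, FDR 0.199). CPSF2-201, the main coding transcript of CPSF2, was at 8.60 TPM in the control cytoplasm and at 5.22 and 5.13 TPM after RNAi (log2 -0.54, FDR 0.257), and its nuclear groups overlapped at 3.41 to 5.57 and 3.98 to 4.66 TPM. CSTF2-201, the main form of CSTF2, was at 10.8 TPM and then at 9.64 and 7.63 TPM in the cytoplasm (log2 -0.13, FDR 0.915).

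**Figure D4:**
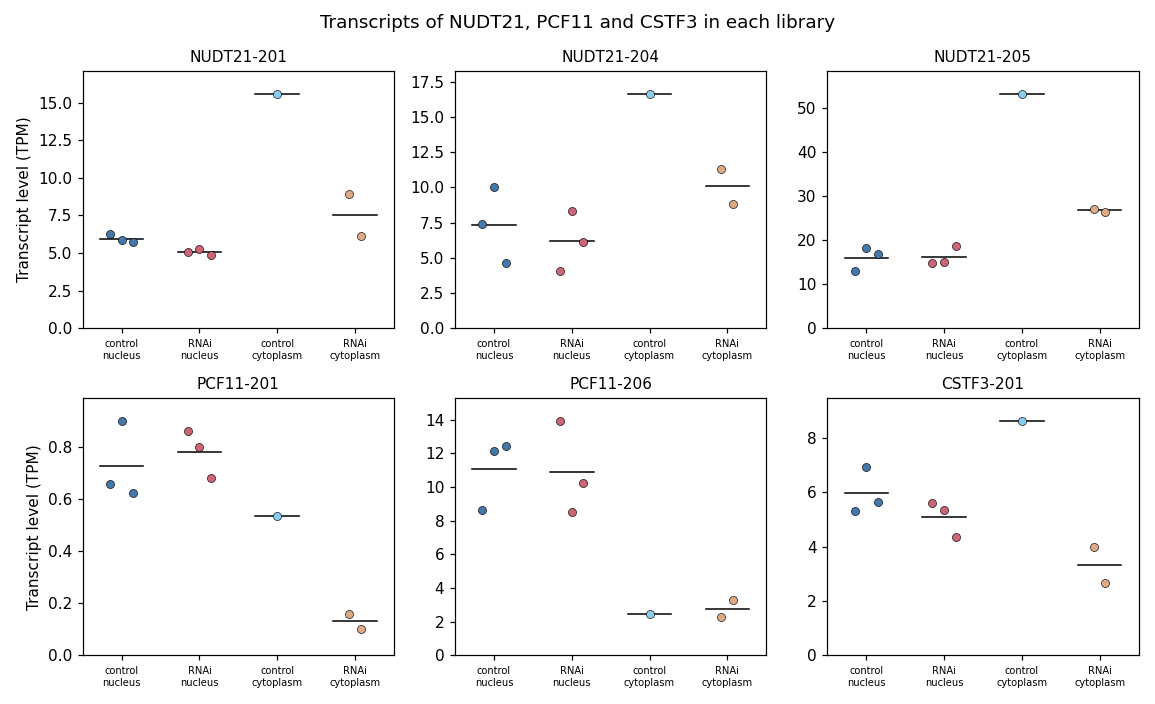
TPM (vertical axes, from 0, with their own scales) of 6 transcripts in every library of the 4 groups; points are libraries and lines are group means. NUDT21-201, NUDT21-204, NUDT21-205, PCF11-201 and CSTF3-201 are each highest of the cytoplasmic libraries in the single control, and PCF11-206 is not.

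Transcripts with different annotated ends were compared for CPSF6, whose nearer and farther poly(A) signals are printed above. CPSF6-201, with the nearer end, was at 43.3, 45.8 and 47.1 TPM in control nuclei and at 49.6, 51.2 and 51.6 TPM in RNAi nuclei, which did not overlap (log2 0.09, FDR 0.882). CPSF6-202, with the farther end, was at 3.51, 3.98 and 3.76 TPM and at 4.19, 3.58 and 3.67 TPM. CPSF6-201 held 92.0% to 92.6% of both together in control nuclei and 92.2% to 93.5% in RNAi nuclei, and these ranges overlapped. In the cytoplasm it held 91.8% in control and 93.7% and 93.8% after RNAi. The usage of neither transcript passed in the nucleus (log2 0.02 and -0.08) or in the ratio. These values belong to whole transcripts, and CPSF6-202 is 6616 nt long as deposited but 6584 nt in GENCODE 44. The shares therefore do not measure the use of either end.

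For CPSF7, CPSF7-205, annotated with the nearer end, had 52.9 to 64.2 TPM in control nuclei and 51.2 to 68.0 TPM in RNAi nuclei. CPSF7-202, annotated with the farther end, had 12.6 to 22.0 and 16.3 to 25.4 TPM. Both pairs of ranges overlapped. Their signals lie close together, in windows that start at chr11:61170206 and chr11:61170131. CPSF7-205 is also 3524 nt long as deposited but 3487 nt in GENCODE 44. These TPM values belong to whole transcripts and do not measure the use of either end. A pair of other CPSF7 coding transcripts was higher in RNAi nuclei without passing. CPSF7-206 was at 8.75, 1.54 and 5.37 TPM in control and at 20.4, 11.4 and 14.7 TPM in RNAi nuclei (usage FDR 0.554). CPSF7-220 was at 5.75, 0 and 0 TPM in control and at 16.9, 29.8 and 25.3 TPM in RNAi nuclei (usage FDR 0.119). Neither pair of groups overlapped. In the cytoplasm CPSF7-220 was at 24.7 TPM in control and at 19.1 and 26.2 TPM after RNAi. CSTF3-203, which ends upstream of the main form, made up 8.1% to 14.3% of the pair with CSTF3-201 in control nuclei and up to 18.2% in RNAi nuclei, and these overlapped.

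Most of the tested transcripts annotated as retaining an intron were higher in the nucleus. Of the 10 tested, 8 were higher in the nucleus of control cells and 1 lower, and 9 were higher and 1 lower in RNAi cells. The lower one was NUDT21-205 in both. The tested transcripts of this type belong only to CPSF1, CPSF4, CPSF7 and NUDT21. A transcript of any type could pass the count filter on nuclear libraries alone. Those rare in the cytoplasm were therefore tested only if nuclei held enough counts, which favours a nuclear excess among them. The part of this selection in the counts and shares given here was not tested. Over all tested retained-intron transcripts (7607), 51.4% were higher in the nucleus of control cells and 65.2% in RNAi cells. Of the 41 member transcripts of any type, 20 passed in control cells (32% of all transcripts) and 21 in RNAi cells (43.6%). Of the 25 coding ones, 8 were lower in the nucleus and 1 higher in control cells, and 6 lower and 4 higher in RNAi cells. Over all 26892 tested coding transcripts 14.7% were lower and 11.3% higher in control cells, and 20.8% lower and 15.5% higher in RNAi cells.

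CPSF4-210, of 689 nt, is annotated as retaining an intron. It was at 10.2, 16.0 and 9.48 TPM in control nuclei, 18.5, 21.9 and 24.9 TPM in RNAi nuclei, 0.550 TPM in the control cytoplasm and 1.47 and 0.880 TPM in the RNAi cytoplasms. Its nuclear groups did not overlap, but the RNAi difference did not pass (log2 0.86, FDR 0.348). CPSF7-218 was at 4.57, 3.26 and 3.86 TPM in control and 6.55, 7.71 and 6.31 TPM in RNAi nuclei (log2 0.73, FDR 0.709), with 0.295 TPM in the control cytoplasm. CPSF4-209 showed 3.07 to 3.56 TPM in control and 3.19 to 4.28 TPM in RNAi nuclei, and these overlapped. The 3 tested CPSF1 transcripts belong to this type, and CPSF1-206, the most abundant, had 3.63, 16.6 and 8.47 TPM in control and 6.98, 10.3 and 8.63 TPM in RNAi nuclei. CPSF1-202 had 3.28, 6.81 and 6.41 TPM in control and 5.42, 5.56 and 4.89 TPM in RNAi nuclei, and both overlapped.

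**Figure D5:**
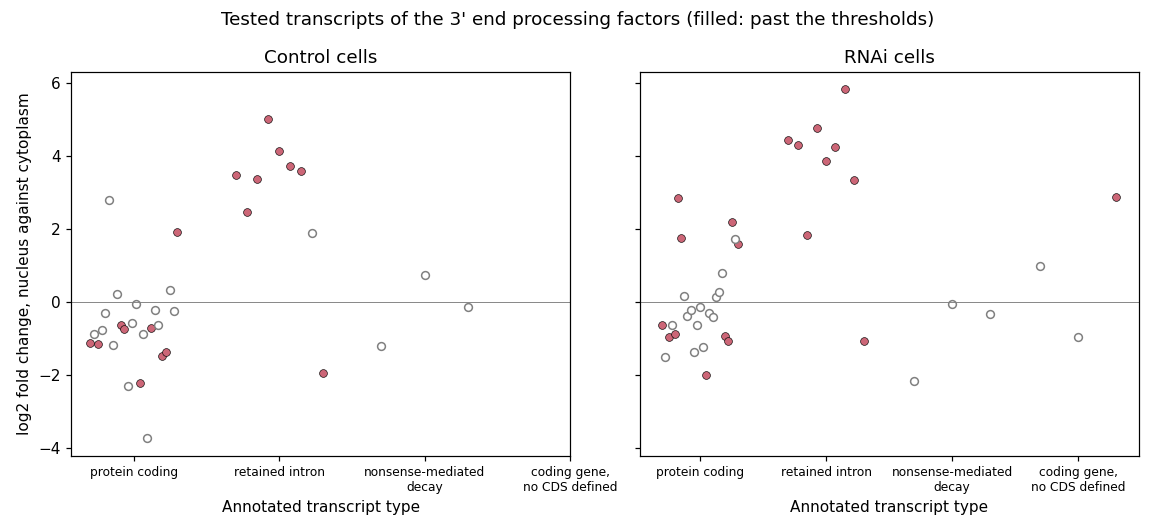
Log2 fold change of nucleus against cytoplasm (vertical axis) for the tested member transcripts by annotated type (horizontal axis), in control cells (left, 36 transcripts) and RNAi cells (right, 40); filled points pass the thresholds. Transcripts with 0 counts in every cytoplasmic library of the condition are left out (5 and 1), and the 1 retained-intron point below 0 is NUDT21-205, at -1.92 in control and -1.07 in RNAi cells.

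The 24 other genes of the pathway gave a mixed picture. In the nucleus 1 was called (4.89% of all genes were), RBBP6, a ring finger protein that stimulates cleavage. It was at 46.8, 16.5 and 30.4 CPM in control and at 80.4, 60.9 and 68.4 CPM in RNAi nuclei (log2 1.16 ± 0.28, FDR 0.0545). Its call was lost without control nucleus replicate 3 (FDR 0.181) or without RNAi nucleus replicate 1, 2 or 3 (FDRs of 0.165, 0.139 and 0.168). In the cytoplasm 4 were higher and 5 lower, 9 of 24 beside 24.6% of all genes. The lower ones included both poly(A) polymerases listed, PAPOLA and PAPOLG. PAPOLA fell from 92.2 CPM to 33.1 and 38.5 CPM (log2 -1.37 ± 0.16, FDR 0.00107) and PAPOLG from 13.3 CPM to 8.57 and 7.76 CPM (log2 -0.70 ± 0.22, FDR 0.0459). FIP1L1, the CPSF subunit that recruits poly(A) polymerase, was at -0.63 ± 0.17 (FDR 0.025), RPRD1A at -0.91 ± 0.14 (FDR 0.00274) and the phosphatase subunit PPP1CB at -0.65 ± 0.20 (FDR 0.0424). The higher ones were INTS11 (0.65 ± 0.13, FDR 0.00726), the endonuclease of the Integrator complex, the histone pre-mRNA factors LSM10 (0.82 ± 0.25, FDR 0.0429) and LSM11 (0.71 ± 0.25, FDR 0.0685), and the phosphatase SSU72 (0.67 ± 0.22, FDR 0.0583). Without RNAi cytoplasm replicate 2 the calls of SSU72 (0.39, FDR 0.29), LSM10 (0.54, FDR 0.208), LSM11 (0.77, FDR 0.109), PAPOLG (-0.69, FDR 0.124) and PPP1CB (-0.61, FDR 0.129) were lost. LSM11 also lost its call without RNAi cytoplasm replicate 1, RNAi nucleus replicate 3 or control nucleus replicate 3 (FDRs of 0.102 to 0.198), and SSU72 without control nucleus replicate 3 (FDR 0.116). FIP1L1 and INTS11 passed with any library left out, but each passed in only 14 of all 17 alternative fits. Their smallest log2 values in size were -0.43 and 0.30, and their FDRs reached 0.332 and 0.582. PAPOLA and RPRD1A passed in all 17.

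In the ratio 4 of the 24 rose and 0 fell, near the 18.2% over all genes, with a median of 0.04 over the list. PAPOLA was at 0.92 ± 0.20 (FDR 0.0186) and RBBP6 at 2.08 ± 0.53 (FDR 0.0319). INTS9, the Integrator partner of INTS11, was at 0.82 ± 0.26 (FDR 0.0701). It lost its call without RNAi nucleus replicate 1, 2 or 3 or RNAi cytoplasm replicate 2, with FDRs of 0.111 to 0.158. RPRD1A, which binds the tail of RNA polymerase II, was at 0.55 ± 0.17 (FDR 0.0646). It lost its call without control nucleus replicate 3, RNAi nucleus replicate 1 or 3, or RNAi cytoplasm replicate 2 (FDRs of 0.12 to 0.146). SYMPK, the scaffold that joins CPSF and CSTF and a control mRNA of the study, was at -0.41 ± 0.18 (FDR 0.172).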

How the data were processed

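The authors trimmed reads with cutadapt and quantified transcripts with salmon against an Ensembl annotation of hg19, and deposited an estimated count and a TPM value per transcript and library. Versions of these tools are not given in the sources used here. Libraries were grouped by the labelled condition, fraction and replicate. Transcript IDs were matched without version to GENCODE 44 on GRCh37, the same build with a newer annotation, and 85.1% of 215170 matched, with 83.07% to 88.31% of each library's counts. Gene totals are sums of the deposited estimated counts of their transcripts, taken to whole numbers. Features with at least 10 counts in at least 3 libraries were fitted in edgeR 4.0.16 (R 4.3.3) with TMM scaling, 4 groups and the quasi-likelihood test, with 5 residual degrees of freedom. The same fit served transcripts, and diffSpliceDGE their usage. Calls needed a log2 fold change beyond 0.5 in size and a Benjamini-Hochberg FDR under 0.1, the study's thresholds. Standard errors are the log2 fold change over the root of the F statistic. The deposited TPM values entered limma 3.58.1 fits on log2(TPM + 1) and log2(TPM + 0.1), and DESeq2 1.42.0 was the other count test. At these depths 3 counts, taken as the lower limit of detection, are 0.19 to 0.304 CPM when scaled by the library's total alone. This limit covers counting error only. The CPM values in the text also carry the TMM scaling, so they are not on exactly the same scale as this limit. Replicates correlated at 0.9723 to 0.9861 and differed by more than counting noise. The code was tested on simulated data. Transcripts varied less there than in these libraries, so that test does not give the power of the transcript and usage fits here. The members, lists, named genes and tests were chosen with earlier results of these data known. The text names all 10 members, both RNAi targets, SYMPK, and pathway genes called in the ratio or nucleus. Of the transcripts it names each member's most abundant one, those called, and those with at least 10% of their gene's TPM in a group, of which not all are printed. The pathway genes given for the cytoplasm, CPSF4-209, CPSF6-202, CPSF7-218 and CSTF3-203 were added after their values were seen.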

Additional observations from a re-analysis of the deposited data

Results flagged for a closer look

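Among the 10 members, the 24 other pathway genes and both RNAi targets, 7 genes passed where the RNAi effect in the nucleus was tested against that in the cytoplasm (the interaction test in edgeR, which 18.2% of all genes passed), and each difference is given here on the log2 scale. Among the 3' end processing factors these were PCF11 (1.667) and NUDT21 (0.532), and among the other pathway genes RBBP6 (2.083), PAPOLA (0.923), INTS9 (0.820) and RPRD1A (0.545). The targeted gene WTAP differed by 0.892, with a drop to 56.2% of control in nuclei and to 30.3% in the cytoplasm. Of these genes PAPOLA, RBBP6 and WTAP passed under each of 17 alternatives, PCF11 under 14, INTS9 and RPRD1A under 10 and NUDT21 under 6. All 7 differences rest on the single control cytoplasm.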

How the results depend on the processing

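The number of members called in the ratio was 2, and it was 1 without a filter on low counts, 0 with the transcript length offset and 0 in both limma fits, and it ranged from 1 to 3 with single libraries left out. In the cytoplasm 3 members became 5 with protein-coding transcripts only, and in the control location comparison 6 became 3. Member transcripts called by DESeq2 were 1 in the ratio, 1 in the nucleus and 5 in the cytoplasm, against 0, 0 and 2. In the cytoplasm that 2 became 0 without the filter, in both limma fits and with the replicate block. Leaving out single libraries gave 0 to 1 in the ratio and 0 to 2 in the cytoplasm, and 0 to 1 (ratio) and 0 to 2 (nucleus) for usage, where limma's diffSplice called 1 in the nucleus. Other pathway genes called in the ratio were 4 (8 with the replicate block, 2 to 5 with libraries left out), in the nucleus 1 (2 by DESeq2, 3 with the block, 2 with protein-coding transcripts only, 0 to 2 with libraries left out) and in the cytoplasm 9 (3 in both limma fits, 5 to 10 with libraries left out).

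Signs turned only for values that did not pass. The CPSF7 ratio (-0.07) was 0.216 with library size only, 0.03 with the length offset, 0.38 and 0.383 in limma with pseudocounts of 1 and 0.1, 0.033 with protein-coding transcripts only, and -0.144 to 0.053 with libraries left out. The CPSF4 ratio (-0.04) was 0.239 with library size only, 0.25 and 0.252 in limma, and -0.121 to 0.024 with libraries left out. The CSTF3 ratio was -0.096 with the length offset. In the nucleus CPSF1 (-0.02) was 0.052 and 0.06 in limma, 0.06 with the replicate block and -0.313 to 0.345 with libraries left out. CSTF2 (-0.05) was 0.001 in limma with a pseudocount of 0.1 and -0.177 to 0.064 with libraries left out, CPSF2 (-0.04) was 0.003 with protein-coding transcripts only and -0.122 to 0.067, and CSTF3 (0.06) was -0.15 with protein-coding transcripts only. In the cytoplasm CPSF7 was -0.056 with library size only, and CSTF3 (-0.31) was 0.312 with the length offset and 0.022 in both limma fits. The cause was not tested.

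Same-numbered control and RNAi nuclei deviated from their group means with correlations of 0.185, 0.11 and 0.042, and differently numbered ones with -0.172 to 0.056. Each nuclear library except RNAi replicate 3 correlated best with its own number. Same-numbered RNAi nuclei and cytoplasms had 0.1 and 0.037, and differently numbered ones -0.1 to 0.063. The numbers were not taken as pairs in the main fit, and whether they mark shared preparations was not tested. The replicate block left the members called in the ratio at 2, while the share over all genes was 25% with it and 18.2% without. No value without the control cytoplasm exists for cytoplasm or ratio.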
